A study of Mus musculus with 9 samples.

Results

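The 42 genes described here carry out the interferon response and the presentation of peptides on class I molecules of the major histocompatibility complex. They were listed by name and grouped by role, and each was read from 1 probe set, the one with the highest mean over the 9 arrays among the probe sets that name that gene alone. Of the 42, 40 had such a probe set, out of 18193 genes in all, and 38 were tested, out of 12559 genes. Isg15 and Ifi44 had none and are not analysed here, and Mx1 and Mx2 were too dim to be tested. The series compared 3 kinds of mouse cells on Affymetrix arrays, with 3 arrays each, which the labels call biological replicates. MEF are fibroblasts from C57BL/6 embryos at embryonic day 13.5. CiCM are chemically induced cardiomyocyte-like cells: MEF given 10 μM CHIR99021, 10 μM RepSox, 50 μM Forskolin, 0.5 mM VPA, 5 μM Parnate and 1 μM TTNPB, from which contracting clusters were collected on day 24. CM are cardiomyocytes taken from mouse hearts, whose age and strain were not given in the sources used here.

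Interferons are secreted proteins that warn cells of infection. Sensors of foreign nucleic acid start their production, and interferon receptors then act through the kinases of the JAK family and transcription factors of the STAT and IRF families. These factors bind 2 short DNA elements, the interferon-stimulated response element (ISRE) and the gamma-activated site (GAS), in front of genes whose products block viral growth. Interferon also raises the class I pathway: the immunoproteasome cuts proteins into peptides, the TAP transporter carries the peptides into the endoplasmic reticulum, and the class I heavy chains, paired with beta-2-microglobulin, show them to cytotoxic T cells. Resting cardiomyocytes are known for low class I display, whereas macrophages and endothelial cells carry more.

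The ISRE letters in front of these genes are what the list is known for, so the stretches around them are shown for members on which the results below turn. RefSeq promoter windows on GRCm38.p6, from 250 bases before to 50 bases after a gene's start, were found for 30 of the 40 genes, and Zbp1, Nlrc5, Mx1, Mx2, Usp18, Parp9, Parp14, Rtp4, Iigp1 and Tap2 had no window. The ISRE core was searched as GAAANNGAA on both strands. Each stretch is given 5′ to 3′ on the gene's own strand, ends before the start, and has every match in capitals.
Rsad2 (chr12:26456543-26456591, minus strand): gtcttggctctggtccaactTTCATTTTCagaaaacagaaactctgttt
Ifit1 (chr19:34640760-34640833, plus strand): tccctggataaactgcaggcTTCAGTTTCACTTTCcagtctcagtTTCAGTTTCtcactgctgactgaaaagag
Ifit3 (chr19:34583354-34583455, plus strand): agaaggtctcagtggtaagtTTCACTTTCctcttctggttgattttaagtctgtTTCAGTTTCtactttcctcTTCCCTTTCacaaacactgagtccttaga
Bst2 (chr8:71537568-71537622, minus strand): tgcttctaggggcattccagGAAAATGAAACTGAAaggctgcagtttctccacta
Gbp2 (chr3:142620585-142620633, plus strand): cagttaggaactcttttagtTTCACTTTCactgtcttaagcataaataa
Gbp3 (chr3:142559980-142560034, plus strand): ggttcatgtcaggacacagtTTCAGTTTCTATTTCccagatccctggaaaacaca
Igtp (chr11:58199502-58199550, plus strand): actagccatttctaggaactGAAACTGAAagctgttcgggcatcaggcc
B2m (chr2:122147528-122147576, plus strand): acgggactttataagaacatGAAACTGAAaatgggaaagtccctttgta
Ifit1 and Ifit3 each held 3 matches, and in Ifit1, Bst2 and Gbp3 a pair of matches overlapped.

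The ISRE core stood in 13 of the 35 member windows (37.1%), against 8.56% of all 32851 mouse windows. The 13 genes were Ifih1, Eif2ak2, Stat2, Rsad2, Ifit1, Ifit3, Bst2, Ifitm3, Gbp2, Gbp3, Igtp, Irgm1 and B2m. The GAS, searched as TTCNNNGAA, which reads the same on both strands, stood in 8 of the 35 member windows (22.9%) against 8.30% of all. Its matches are shown for Psmb8, the immunoproteasome subunit that differed most between CiCM and MEF, and for Irf1, a transcription factor that the GAS is known to serve.
Psmb8 (chr17:34198078-34198126, plus strand): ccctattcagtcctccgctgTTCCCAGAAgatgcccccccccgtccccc
Irf1 (chr11:53769904-53769952, plus strand): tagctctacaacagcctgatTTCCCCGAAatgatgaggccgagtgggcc
The calls given below fell on genes with and without the core. In CM against MEF, 6 of the 13 genes with the core were called higher and 2 lower, and 6 of the 17 genes without it were called higher and 0 lower. Over all genes tested, 22.1% were called higher and 21.8% lower in that comparison. Against MEF, CiCM calls among the 13 genes with the core were 1 higher and 3 lower, and among the 17 without it 1 higher and 5 lower. The shares over all genes were 11.6% higher and 12.2% lower. Counts this small do not separate genes with the core from genes without it. A match is a run of letters and was not tested for binding.

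All levels are log2 signals, so a difference of 1 is a 2-fold change of signal. Every array had been scaled to a trimmed mean of 500, and the array medians were 6.37 to 6.53 in MEF, 6.41 to 6.53 in CiCM and 6.75 to 6.85 in CM. The number of arrays, 3 per group, limits the precision. A gene was called where limma's adjusted p, by Benjamini-Hochberg over the 12559 genes, was under 0.05 and the difference was at least 1. With 3 arrays on each side, the smallest 2-sided p of an exact permutation test is 0.1, so p-values come from limma's fit over all genes. The heart markers Myh6, Tnnt2, Tnni3, Actc1, Pln and Ryr2 were all called higher in CM than in MEF. In CiCM, 5 of these 6 were called higher than in MEF, with means of 14.50 for Tnnt2, 13.66 for Actc1 and 7.13 for Myh6, and Ryr2 was not called. The CiCM means of Tnni3 (5.77), Pln (6.52) and Ryr2 (5.19) lay under 6.58, the median of the table. The skeletal muscle genes Myh8, Myh4, Myog and Neb lay between 12.59 and 14.46 in CiCM. These are bulk samples, in which fewer cells of a type and less RNA per cell cannot be told apart.

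On average, in the signals as deposited, the interferon and class I genes were lowest in CiCM and highest in CM. Averaged over the 40 genes, the log2 signal was 8.95 to 9.04 on the MEF arrays, 8.45 to 8.76 on the CiCM arrays and 9.70 to 10.06 on the CM arrays, so the groups did not overlap. The 5 sensors did not have this order, with averages of 7.83 to 8.02 in MEF, 7.80 to 7.96 in CiCM and 7.21 to 8.01 in CM. Against MEF, CiCM had 3 of 38 genes called higher (11.6% of all genes tested were) and 11 called lower (12.2% of all). The genes that rose were Zbp1, Igtp and Tapbp. The genes that fell were Ifih1, Eif2ak2, Nlrc5, Usp18, Parp14, Cmpk2, Irgm1, Psmb8, Psmb9, H2-K1 and H2-D1. The median difference of the 38 genes was -0.31, beside -0.03 over all genes.

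Against MEF, CM had 16 of 38 genes called higher (22.1% of all) and 2 called lower, Eif2ak2 and Bst2 (21.8% of all). The median difference was 0.80, beside -0.03 over all genes. Against CM, CiCM had 2 genes called higher, Zbp1 and Bst2 (16.5% of all), and 18 called lower (19.0% of all), with a median difference of -0.91 beside -0.03. The members called higher in CiCM, 3 of 38, were thus near the background share against MEF. Against CM, 2 of 38 were under it. The share called lower in CiCM, 11 and 18 of 38, was above the background in both comparisons. Parp14, Cmpk2, Psmb9 and H2-K1 were called both lower in CiCM and higher in CM than in MEF. The comparisons share their MEF, CiCM or CM arrays, so these calls are not independent of each other.

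**Figure D1:**
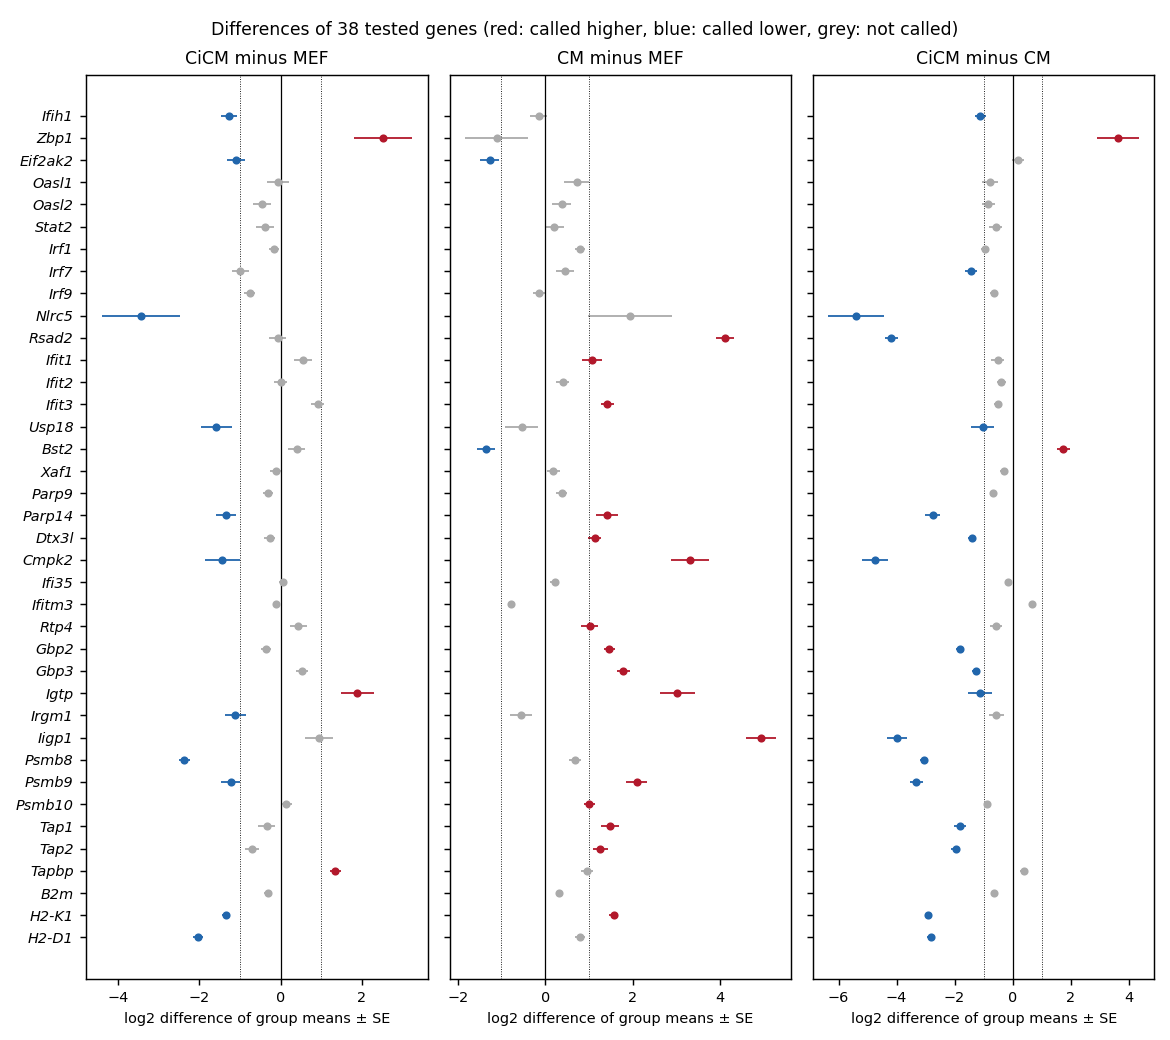
Log2 differences of group means (x axes, with error bars of 1 SE from the limma fit) of the 38 tested genes (y axis, in the order of their roles), in 1 panel each for CiCM minus MEF, CM minus MEF and CiCM minus CM. Red points were called higher, blue points lower and grey points not called, and the dotted lines mark differences of -1 and 1. H2-K1 and Psmb9 are blue in the first panel and red in the middle panel.

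**Figure D2:**
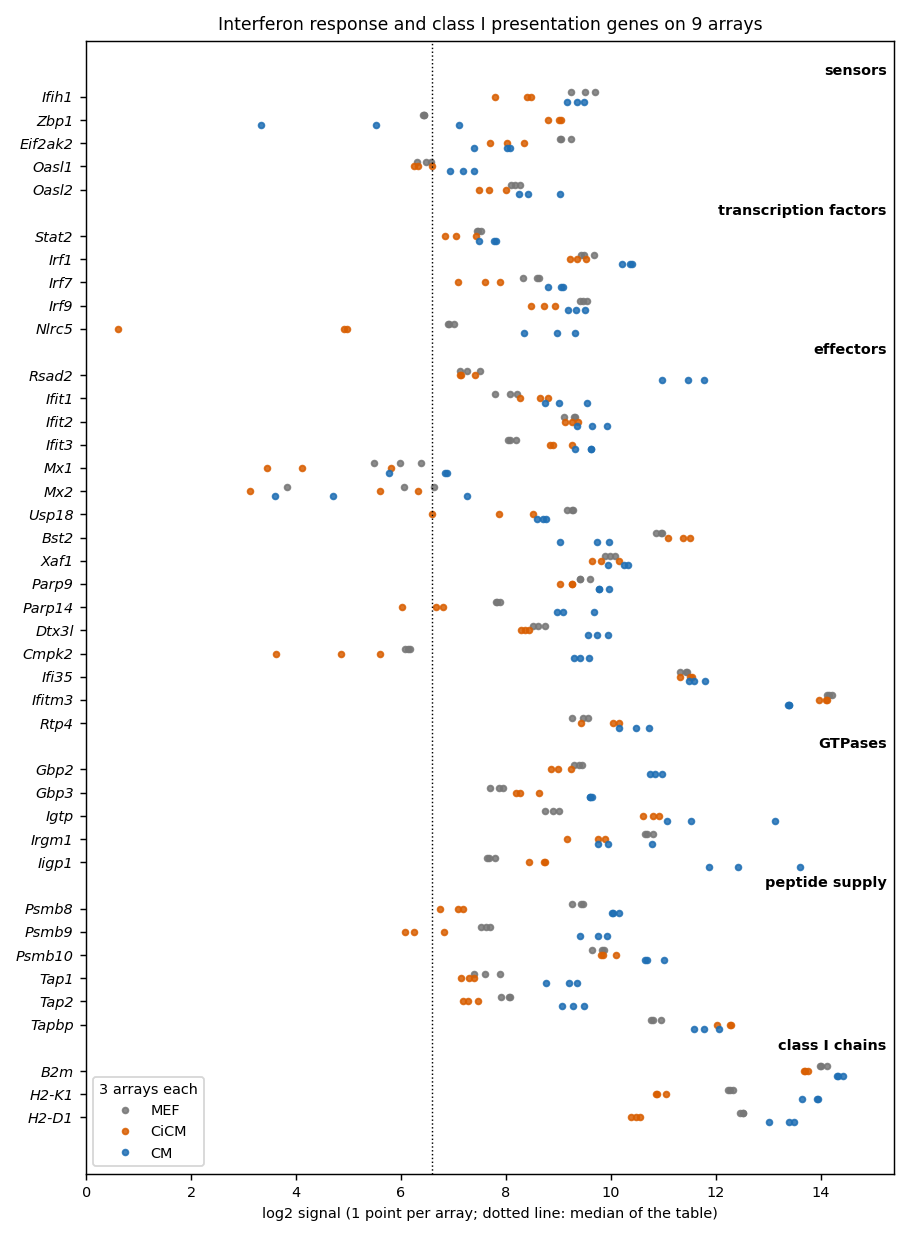
Log2 signal (x axis, 1 point per array, 3 arrays each of MEF, CiCM and CM) of the 40 genes with a probe set (y axis), grouped by role, with the median of the table, 6.58, as a dotted line. Nlrc5 and Cmpk2 spread widely on the CiCM arrays, and Zbp1 spreads from 3.33 to 7.11 on the CM arrays.

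Of the sensors, the CiCM cells had less Ifih1 and Eif2ak2 and more Zbp1 than MEF. Ifih1 encodes MDA5, which detects long double-stranded RNA. Its signals were 9.69, 9.51 and 9.24 in MEF, 8.40, 8.48 and 7.79 in CiCM and 9.36, 9.16 and 9.48 in CM. Every CiCM array lay below every other array, while MEF and CM overlapped. Ifih1 fell by 1.26 ± 0.20 (SE) in CiCM against MEF (limma adjusted p = 0.000391) and was 1.11 ± 0.20 lower in CiCM than in CM (difference -1.11, limma adjusted p = 0.000616). The second of these differences was -0.89 without CiCM replicate 3 and -0.80 with arrays centred on their medians, both short of the minimum of 1.

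Eif2ak2 encodes PKR, the kinase that halts translation when double-stranded RNA is present. Its signals were 9.23, 9.05 and 9.03 in MEF, 7.69, 8.01 and 8.34 in CiCM and 7.39, 8.02 and 8.08 in CM. MEF stood above the other two groups, which overlapped. Eif2ak2 fell by 1.09 ± 0.22 (SE) in CiCM (limma adjusted p = 0.00214) and by 1.27 ± 0.22 in CM (limma adjusted p = 0.000441), and CiCM and CM differed by 0.18 ± 0.22 (limma adjusted p = 0.492). Without CiCM replicate 1 the difference of Eif2ak2 from MEF in CiCM was -0.93, under the minimum.

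Zbp1, a sensor of Z-form nucleic acid that can start necroptosis, went the other way. Its signals were 6.44, 6.44 and 6.41 in MEF, 9.05, 9.0 and 8.80 in CiCM and 7.11, 5.53 and 3.33 in CM. The CiCM arrays were close together and above all others, whereas the CM arrays spread more than those of any other member (SD 1.90). Zbp1 rose by 2.52 ± 0.72 (SE) in CiCM against MEF (limma adjusted p = 0.0138) and was 3.63 ± 0.72 higher in CiCM than in CM (limma adjusted p = 0.00126). A second probe set of Zbp1 was also higher in CiCM, with a mean of 7.64 there, 5.99 in MEF and 6.14 in CM. In CM against MEF the difference was -1.11 ± 0.72 (limma adjusted p = 0.192), without CM replicate 3 it was -0.11, and without CM replicate 1 it was -2.0 and was called. Oasl1 and Oasl2, relatives of the oligoadenylate synthetases, were called in no comparison.

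Among the transcription factors, Nlrc5 and Irf7 stood out for their low signals in CiCM. Nlrc5 is the transactivator of the class I genes. Its signals were 7.01, 6.89 and 6.91 in MEF, 4.96, 0.61 and 4.91 in CiCM and 8.97, 8.35 and 9.31 in CM. The 3 groups did not overlap, and CiCM replicate 2 lay far under the other CiCM arrays, all of which were under 6.58. Nlrc5 fell by 3.44 ± 0.96 (SE) in CiCM against MEF (limma adjusted p = 0.0118), and CiCM differed from CM by -5.39 ± 0.96 (limma adjusted p = 0.000597). Without CiCM replicate 2 the difference of Nlrc5 between CiCM and MEF was -2.0 and still called. With 32 added to the linear signals, which damps dim values, the fall of Nlrc5 was -1.60 and still called, and with a constant 4 times as large it was -0.76 and was not. Against MEF, CM differed by 1.94 ± 0.96 (limma adjusted p = 0.0924), and this difference of 1.94 was called without CiCM replicate 2, which widens the shared spread. Only 1 probe set measured Nlrc5.

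Irf7, which drives the later wave of interferon production, had signals of 8.32, 8.58 and 8.63 in MEF, 7.59, 7.89 and 7.09 in CiCM and 9.04, 8.79 and 9.09 in CM. Its groups did not overlap and were ordered CiCM, MEF, CM. Irf7 was lower in CiCM than in CM by -1.45 ± 0.21 (SE; limma adjusted p = 0.000141). Against MEF its difference in CiCM was -0.99 ± 0.21 (limma adjusted p = 0.00268), just short of the minimum of 1, and it passed at -1.08 without MEF replicate 1, at -1.02 without CiCM replicate 1 and at -1.17 without CiCM replicate 2.

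Stat2 and Irf9 are partners in the complex that binds the ISRE. The signals of Stat2 were 7.47, 7.45 and 7.52 in MEF, 6.83, 7.05 and 7.43 in CiCM and 7.77, 7.49 and 7.81 in CM. CiCM lay under MEF and CM on every array, by 0.02 at the nearest arrays, and no difference of Stat2 was called. Irf9 had a difference of -0.76 ± 0.14 (SE) in CiCM against MEF, and Irf1 one of -0.96 ± 0.12 in CiCM against CM, both under the minimum. Irf1 would have been called against CM, at -1.04, without CiCM replicate 2 and, at -1.02, without CM replicate 2. Over the 5 transcription factors, 0 were called higher and 1 lower in CiCM against MEF, 0 were called either way in CM against MEF, and 0 were called higher and 2 lower in CiCM against CM. In turn, 11.6% and 12.2%, 22.1% and 21.8%, and 16.5% and 19.0% of all genes were called higher and lower. A list of 5 genes is too short to set against these shares.

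Upstream of these factors, the 14 tested genes of the list of receptors and signalling gave 1 higher and 1 lower call in each of the comparisons with MEF. Over all genes, 11.6% were called higher and 12.2% lower in CiCM, and 22.1% and 21.8% in CM. The receptor chains of type I interferon differed from MEF by less than the minimum of 1. In CM the differences were -0.96 ± 0.14 (SE, limma adjusted p = 0.000142) for Ifnar1 and -0.93 ± 0.12 (limma adjusted p = 3.70e-05) for Ifnar2. In CiCM they were -0.68 and -0.41. The means of MEF, CiCM and CM were 9.91, 9.23 and 8.95 for Ifnar1, and 11.28, 10.87 and 10.35 for Ifnar2. Neither was called in any comparison, although Ifnar1 would have been called lower in CM without MEF replicate 3 (-1.01) or without CM replicate 3 (-1.10), and Ifnar2 without CM replicate 1 (-1.03).

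Of the kinases and feedback genes, Jak1, the kinase bound to these receptors, fell by 1.11 ± 0.15 (SE) in CiCM against MEF (limma adjusted p = 0.000167) and differed by -0.01 in CM. Socs3, a feedback inhibitor of cytokine signalling, rose by 1.21 ± 0.13 in CiCM (limma adjusted p = 2.64e-05) and fell by 1.84 ± 0.13 in CM (limma adjusted p = 3.79e-07). Il10rb, a shared chain of the receptors of interferon lambda and interleukin 10, rose by 1.89 ± 0.09 in CM against MEF (limma adjusted p = 1.66e-08). Against CM, CiCM had 1 gene of this list higher and 3 lower: Socs3 at 3.05, Il10rb at -2.33, Ifngr2, a chain of the interferon gamma receptor, at -1.56, and Jak1 at -1.10. Over all genes, 16.5% were called higher and 19.0% lower in that comparison. The Jak1 difference from CM was -0.90 without CM replicate 2 and -0.30 with the mean over probe sets, and the Socs3 difference of CiCM from MEF was 0.98 on the hybridisation controls, all under the minimum. The interferon genes themselves were dim: 6 of the 9 listed had a probe set, all group means lay between 2.23 and 5.66, under the line of 6.58, and 0 were tested.

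The list of other sensing and adaptor genes had 19 tested members. In CiCM against MEF, 0 were called higher and 4 lower: Tlr7, an endosomal RNA receptor, fell by 2.83, Irf8 fell by 2.05, Cgas, the DNA sensor, fell by 2.03, and Oas1a fell by 1.91. The highest limma adjusted p of the 4 was 0.000928, for Tlr7. With the larger constant added, Tlr7 was at -0.82 and Irf8 at -0.83, and neither was called. In CM against MEF, 3 rose and 4 fell. Oas2 was 2.37 higher, Tlr3, the receptor of double-stranded RNA, 2.07 higher, and Mavs, the adaptor on mitochondria, 1.88 higher. Ikbke fell by 3.77 and Sting1, the adaptor of Cgas, fell by 1.88 and Cgas fell by 1.29. Cgas and Sting1 thus fell in CM, where 16 members rose. Against CM, CiCM had 2 genes of this list higher and 7 lower, with Ikbke at 3.53, Oas2 at -2.77, Irf8 at -2.74 and Tlr7 at -2.54. Over all genes, 11.6% were called higher and 12.2% lower in CiCM against MEF. These shares were 22.1% and 21.8% in CM against MEF, and 16.5% and 19.0% in CiCM against CM.

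Among the effectors, most calls were of genes higher in CM. Of the 14 tested, 0 were called higher and 3 lower in CiCM against MEF, 7 higher and 1 lower in CM against MEF, and 1 higher and 5 lower in CiCM against CM. In turn, 11.6% and 12.2%, 22.1% and 21.8%, and 16.5% and 19.0% of all genes were called higher and lower. Rsad2 encodes viperin, an enzyme that makes a chain-terminating nucleotide. Its signals were 7.25, 7.13 and 7.51 in MEF, 7.15, 7.13 and 7.40 in CiCM and 10.97, 11.47 and 11.78 in CM. MEF and CiCM overlapped, and every CM array lay above both. Rsad2 rose by 4.11 ± 0.21 (SE) in CM against MEF (limma adjusted p = 3.37e-08), and the difference between CiCM and MEF was -0.07 ± 0.21 (limma adjusted p = 0.803).

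Cmpk2, a mitochondrial nucleotide kinase, is the neighbour of Rsad2 in the RefSeq gene order. Its signals were 6.17, 6.13 and 6.07 in MEF, 5.60, 3.61 and 4.86 in CiCM and 9.30, 9.40 and 9.58 in CM. The CM arrays were well above the rest, and the MEF and CiCM arrays all lay under 6.58. Cmpk2 rose by 3.31 ± 0.44 (SE) in CM against MEF (limma adjusted p = 5.59e-05) and CiCM differed from CM by -4.74 ± 0.44 (limma adjusted p = 5.31e-06). Its fall of 1.43 ± 0.44 in CiCM against MEF (difference -1.43, limma adjusted p = 0.0193) rested on dim values. That call was lost without MEF replicate 1 (-1.41, limma adjusted p = 0.0515), without CiCM replicate 2 (-0.89), with 32 added to the linear signals (-0.76) and with the mean over the Cmpk2 probe sets (-0.77).

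Parp14, an ADP-ribosyltransferase, was low in CiCM and high in CM. Its signals were 7.88, 7.80 and 7.83 in MEF, 6.79, 6.66 and 6.01 in CiCM and 9.09, 8.98 and 9.68 in CM, with no overlap of groups. Parp14 fell by 1.35 ± 0.25 (SE) in CiCM (limma adjusted p = 0.00120) and rose by 1.41 ± 0.25 in CM (limma adjusted p = 0.000497), both against MEF. Its neighbours in the RefSeq order are Dtx3l and Parp9, which form a ubiquitin ligase pair. Dtx3l rose by 1.13 ± 0.14 in CM against MEF (limma adjusted p = 2.68e-05), and Parp9 differed by 0.38 and was not called.

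Bst2 and Ifitm3 had their lowest signals in CM. Bst2 encodes tetherin, which holds budding virus on the cell surface. Its signals were 10.97, 10.95 and 10.86 in MEF, 11.50, 11.37 and 11.09 in CiCM and 9.97, 9.02 and 9.73 in CM. CM lay below both other groups on every array. Bst2 fell by 1.35 ± 0.21 (SE) in CM against MEF (limma adjusted p = 0.000161) and was 1.75 ± 0.21 higher in CiCM than in CM (limma adjusted p = 3.10e-05). Its promoter holds both the ISRE core shown above and a GAS match.

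Ifitm3, a membrane protein that blocks virus entry, had signals of 14.12, 14.21 and 14.16 in MEF, 14.10, 14.11 and 13.96 in CiCM and 13.38, 13.40 and 13.40 in CM. The CM arrays lay below all others. The difference of CM from MEF was -0.77 ± 0.07 (SE; limma adjusted p = 3.71e-06), under the minimum of 1, and it was called at -1.07 with quantile normalization.

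Of the other effectors, Ifit3 rose by 1.42 ± 0.15 (SE) in CM against MEF (limma adjusted p = 9.81e-06), Ifit1 by 1.08 ± 0.23 (limma adjusted p = 0.00148) and Rtp4 by 1.02 ± 0.20 (limma adjusted p = 0.000937). Ifit1 and Ifit3 bind viral RNA or the proteins that do so. The CiCM differences from MEF of Ifit3 (0.91), Ifit1 (0.55) and Rtp4 (0.44) were above 0 and none was called. The CM calls of Ifit1 and Rtp4 were near the minimum: Ifit1 was at 0.96 without MEF replicate 2 and 0.86 without CM replicate 3, and Rtp4 at 0.93 without MEF replicate 3 and 0.88 without CM replicate 3. Usp18, which removes ISG15 from proteins and restrains the receptor, fell by 1.58 ± 0.38 in CiCM against MEF (limma adjusted p = 0.00531), a difference that was -1.04 without CiCM replicate 3 and -2.01 without CiCM replicate 1, called in both. Its call against CM (-1.04 ± 0.38, limma adjusted p = 0.0331) was lost without CiCM replicate 2 (-1.14, limma adjusted p = 0.0505), without CiCM replicate 3 (-0.50), without CM replicate 2 (-1.03, limma adjusted p = 0.0732) and without CM replicate 3 (-1.0, limma adjusted p = 0.0781). Ifit2, Xaf1 and Ifi35 were called in no comparison. The untested Mx1 and Mx2 ranged from 3.44 to 6.87 and from 3.12 to 7.26 over the 9 arrays.

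Most of the interferon-inducible GTPases, which attack the membranes around intracellular microbes, were higher in CM than in MEF. Of them, Igtp rose in CiCM as well. In CM against MEF, 4 of 5 were called higher and 0 lower, beside 22.1% and 21.8% of all genes. Against MEF, CiCM had 1 called higher (Igtp) and 1 lower (Irgm1), beside 11.6% and 12.2% of all genes. Iigp1 had signals of 7.78, 7.67 and 7.64 in MEF, 8.74, 8.72 and 8.44 in CiCM and 11.86, 12.42 and 13.60 in CM. The groups did not overlap, with CiCM between MEF and CM. Iigp1 rose by 4.93 ± 0.34 (SE) in CM against MEF (limma adjusted p = 3.05e-07), the largest difference of any member in that comparison, and its difference in CiCM against MEF was 0.94 ± 0.34, under the minimum.

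Igtp, also called Irgm3, had signals of 8.90, 8.74 and 9.01 in MEF, 10.91, 10.61 and 10.80 in CiCM and 11.52, 11.07 and 13.13 in CM. All arrays of CiCM and CM were above those of MEF, and CM replicate 3 was well above the other CM arrays. Igtp rose by 1.89 ± 0.40 (SE) in CiCM (limma adjusted p = 0.00271) and by 3.02 ± 0.40 in CM (limma adjusted p = 5.73e-05). The difference between CiCM and CM, -1.13 ± 0.40 (limma adjusted p = 0.0304), was -0.52 without CM replicate 3. It also missed the threshold without CiCM replicate 1 (-1.20, limma adjusted p = 0.0565), without CiCM replicate 2 (-1.05, limma adjusted p = 0.0861) and without CiCM replicate 3 (-1.15, limma adjusted p = 0.0656).

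The guanylate-binding proteins Gbp2 and Gbp3, whose ISRE cores are shown above, were also higher in CM. The signals of Gbp2 were 9.45, 9.29 and 9.39 in MEF, 9.23, 8.99 and 8.86 in CiCM and 10.98, 10.74 and 10.83 in CM. Those of Gbp3 were 7.69, 7.94 and 7.86 in MEF, 8.62, 8.26 and 8.18 in CiCM and 9.59, 9.64 and 9.60 in CM. No groups overlapped in either gene, and CiCM lay under MEF for Gbp2 and over MEF for Gbp3. Against MEF, Gbp2 rose by 1.47 ± 0.12 (SE) in CM (limma adjusted p = 1.26e-06) and Gbp3 by 1.79 ± 0.15 (limma adjusted p = 1.66e-06). Irgm1 fell by 1.11 ± 0.25 in CiCM against MEF (limma adjusted p = 0.00411), a difference that was -0.89 without CiCM replicate 3. In CM, Irgm1 was not higher. Its difference from MEF there was -0.55 ± 0.25 (limma adjusted p = 0.0746), not called as deposited and called at -1.35 with arrays levelled on the hybridisation controls.

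Of the genes that supply peptides, Psmb8, Psmb9, Tap1 and Tap2 had their lowest means in CiCM and their highest in CM. Of the 6 tested, 1 was called higher and 2 lower in CiCM against MEF, 4 higher and 0 lower in CM against MEF, and 0 higher and 4 lower in CiCM against CM. In turn, 11.6% and 12.2%, 22.1% and 21.8%, and 16.5% and 19.0% of all genes were called higher and lower. Psmb8 and Psmb9 encode catalytic subunits of the immunoproteasome. The signals of Psmb8 were 9.42, 9.25 and 9.46 in MEF, 7.09, 7.17 and 6.75 in CiCM and 10.03, 10.01 and 10.15 in CM. Those of Psmb9 were 7.52, 7.62 and 7.69 in MEF, 6.24, 6.08 and 6.82 in CiCM and 9.76, 9.41 and 9.93 in CM. In both genes every CiCM array lay under every MEF array, and every MEF array under every CM array.

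Psmb8 fell by 2.37 ± 0.14 (SE) in CiCM against MEF (limma adjusted p = 4.21e-07), and its difference in CM, 0.69 ± 0.14, did not reach the minimum. Psmb9 fell by 1.23 ± 0.23 in CiCM (limma adjusted p = 0.00114) and rose by 2.09 ± 0.23 in CM (limma adjusted p = 1.16e-05). With 32 added to the linear signals the difference of Psmb9 in CiCM was -0.97, and with a constant 4 times as large -0.60. Psmb10, the third immunoproteasome subunit, differed by 0.14 ± 0.13 in CiCM and rose by 1.01 ± 0.13 in CM (limma adjusted p = 3.66e-05), a call lost without MEF replicate 3 (0.93) or CM replicate 3 (0.90).

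The constitutive subunits that these 3 replace were not called lower in CiCM. Against MEF, Psmb5 differed by 0.87 ± 0.08 (SE) in CiCM and 0.12 in CM, Psmb6 by 0.33 and 0.34, and Psmb7 by 0.19 and 0.13, and none was called. Of the 10 tested genes of the standard proteasome and loading list, 0 were called in CiCM against MEF and 1 each way in CM against MEF. Over all genes, 11.6% were called higher and 12.2% lower in CiCM, and 22.1% and 21.8% in CM. Psme1, an interferon-inducible cap of the proteasome, rose by 1.51 ± 0.13 in CM (limma adjusted p = 1.93e-06). Pdia3, a chaperone of the peptide-loading complex, fell by 2.22 ± 0.14 in CM (limma adjusted p = 2.10e-07).

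Tap1 and Tap2 form the peptide transporter. The signals of Tap1 were 7.88, 7.60 and 7.38 in MEF, 7.38, 7.15 and 7.29 in CiCM and 9.20, 8.77 and 9.35 in CM. Those of Tap2 were 8.05, 7.91 and 8.07 in MEF, 7.46, 7.17 and 7.28 in CiCM and 9.27, 9.06 and 9.49 in CM. CM was above the rest on every array for both genes, and the lowest MEF array of Tap1 was level with the highest CiCM array to 2 decimals.

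In CM against MEF, Tap1 rose by 1.49 ± 0.21 (SE; limma adjusted p = 7.68e-05) and Tap2 by 1.26 ± 0.17 (limma adjusted p = 5.54e-05). The CiCM differences from MEF were -0.34 ± 0.21 and -0.71 ± 0.17, neither of them called. Tapbp, or tapasin, which holds class I molecules at the transporter, differed in direction from Tap1 and Tap2 in CiCM. It rose by 1.35 ± 0.13 against MEF (limma adjusted p = 9.91e-06), and in CM its difference was 0.96 ± 0.13, called without MEF replicate 2 (1.01) or CM replicate 2 (1.07). A second Tapbp probe set differed from MEF by 0.89 in CiCM and by only 0.05 in CM. Psmb9, Tap1, Psmb8 and Tap2 follow each other in the RefSeq order with no other protein-coding gene between them.

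The class I heavy chains had their lowest signals in CiCM and their highest in CM. H2-K1 had signals of 12.22, 12.32 and 12.26 in MEF, 10.87, 11.04 and 10.85 in CiCM and 13.92, 13.63 and 13.95 in CM. The groups were far apart beside the spread of their arrays. H2-K1 fell by 1.35 ± 0.10 (SE) in CiCM (limma adjusted p = 1.58e-06) and rose by 1.57 ± 0.10 in CM (limma adjusted p = 1.66e-07), both against MEF, so CiCM differed from CM by -2.91 ± 0.10 (limma adjusted p = 6.93e-09).

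H2-D1 had signals of 12.52, 12.52 and 12.46 in MEF, 10.47, 10.56 and 10.39 in CiCM and 13.48, 13.01 and 13.39 in CM. Its order was that of H2-K1, again with no overlap. H2-D1 fell by 2.03 ± 0.12 (SE) in CiCM against MEF (limma adjusted p = 2.57e-07), and its difference in CM, 0.80 ± 0.12 (limma adjusted p = 0.000104), was under the minimum. B2m, the light chain, had signals of 13.98, 14.00 and 14.11 in MEF, 13.76, 13.69 and 13.68 in CiCM and 14.32, 14.43 and 14.30 in CM. Its groups did not overlap either, but the differences from MEF were -0.32 ± 0.08 in CiCM and 0.32 ± 0.08 in CM, and neither was called.

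The heavy-chain genes are near-identical to each other, and many of their probe sets are of a kind that can bind more than 1 transcript, so the split of signal between H2-K1 and H2-D1 is uncertain. All 4 probe sets of H2-K1 had a lower mean in CiCM than in MEF (-1.35, -1.03, -0.04 and -1.89) and a higher mean in CM. H2-D1 had 9 probe sets, of which 5 had a group mean of at least 6.58. Of these 5, 4 were lower in CiCM than in MEF (-2.03, -1.90, -2.60 and -2.11), and 1 was higher (3.64, from 5.70 in MEF to 9.33 in CiCM), and all 5 were higher in CM than in MEF. Averaged over all 9 probe sets, dim ones included, the CiCM difference of H2-D1 was 0.20 and was not called. Across all members, 15 tested genes had several probe sets past the line, of which 12 had 1 sign in CiCM against MEF and 13 in CM against MEF.

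**Figure D3:**
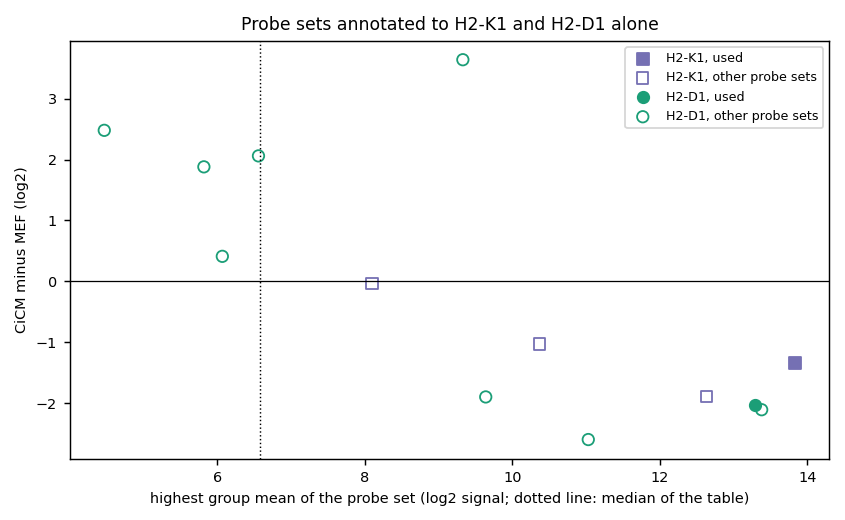
Difference of CiCM from MEF (y axis, log2) against the highest group mean (x axis, log2 signal) of each probe set of H2-K1 (squares) and H2-D1 (circles), with the probe set used for each gene filled and the median of the table as a dotted line. The brightest probe sets of both genes lie below 0, and 1 H2-D1 probe set past the line lies at 3.64.

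Markers of cells known to carry much class I and class II also differed between the groups, but not all in the order of the class I chains. Class II genes, which antigen-presenting cells express, were high in CM: 5 of 5 tested were called higher in CM than in MEF, with H2-Aa at 9.05, H2-Eb1 at 6.38, Cd74 at 4.81 and H2-Ab1 at 2.37. Against MEF, CiCM had 1 call, H2-Ab1, which fell by 1.75, and against CM it had 4 of the 5 lower. All 10 endothelial markers were called higher in CM than in MEF and lower in CiCM than in CM, and 2 were called lower in CiCM than in MEF. Their summed linear signal was 19423 to 22155 in CM, 1142 to 1500 in MEF and 731 to 854 in CiCM. Over all genes, 22.1% were called higher in CM against MEF. The shares called lower were 12.2% in CiCM against MEF and 19.0% in CiCM against CM.

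The macrophage markers were high in MEF too. All 17 were called lower in CiCM than in MEF, 6 were called lower in CM than in MEF, and 12 were called lower in CiCM than in CM. Their summed linear signal was 49652 to 53815 in MEF, 6627 to 10823 in CiCM and 28241 to 38782 in CM. Over all genes, 12.2% were called lower in CiCM against MEF, 21.8% in CM against MEF and 19.0% in CiCM against CM. The means of Ptprc, a pan-leukocyte marker, were 9.86 in MEF, 5.99 in CiCM and 9.80 in CM. Lymphocyte markers were mostly dim, with 2 of the 8 measured having a group mean past the line. Their summed signals were 174 to 256 in MEF, 195 to 320 in CiCM and 395 to 803 in CM. Of the 8, 5 reached the line on CM replicate 1, 3 on CM replicate 2 and 2 on CM replicate 3. On the MEF and CiCM arrays at most 1 did. Cd79b was called lower in CiCM than in CM (-2.43 ± 0.92 SE, limma adjusted p = 0.0388). Some group means of these lists lay under the line of 6.58, such as 0.88 for Tie1 and 3.49 for Pecam1 in CiCM. Dim values spread widely, so they do not show whether a cell type was present. Thus in CiCM the macrophage markers were lower, as were the class I chains, and in CM the endothelial and class II genes were higher while the macrophage markers were not. Their part in the interferon and class I differences was not tested.

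**Figure D4:**
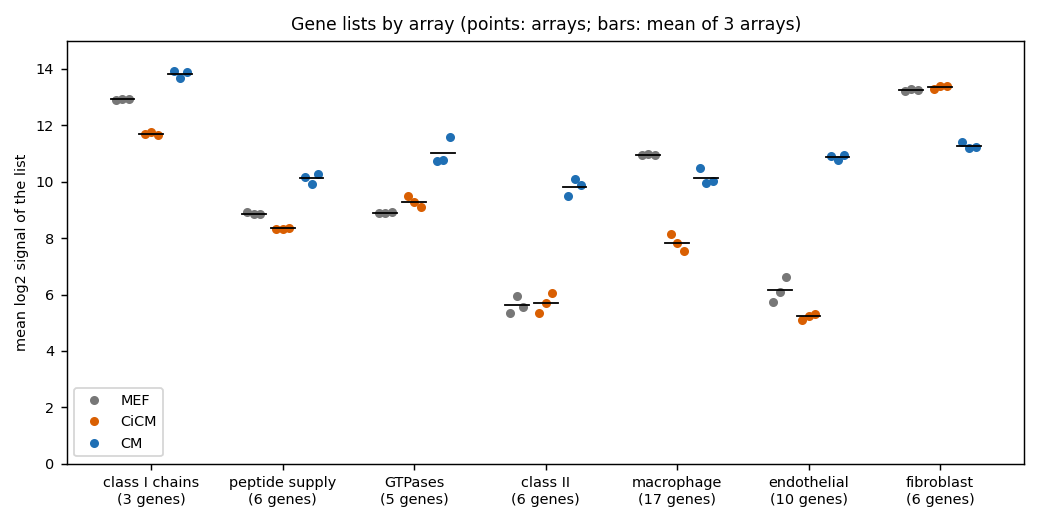
Mean log2 signal of 7 gene lists (y axis) on each array (points, coloured by group), with the mean of 3 arrays as a bar, for 3 role groups of the members and for class II, macrophage, endothelial and fibroblast genes (x axis). Class I chains lie between 11.64 and 11.76 on the CiCM arrays and between 13.69 and 13.91 on the CM arrays, and macrophage markers lie between 7.53 and 8.14 on the CiCM arrays and between 10.94 and 10.98 on the MEF arrays.

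Ranked by group means, 20 of the 38 tested genes (52.6%) had the order CM above MEF above CiCM, which 15% of all genes tested had. Levelled on the hybridisation controls, 11 of the 38 (28.9%) had that order, beside 8.65% of all genes, and 18 had it with quantile normalization or with arrays centred on their medians. The next most frequent order, CM above CiCM above MEF, held 9 members and 24.2% of all genes. Many members also varied together within CM and within CiCM. CM replicate 3 had the highest signal of the CM arrays for 28 of the 38 genes (33.0% of all genes), and CiCM replicate 3 had the lowest of the CiCM arrays for 25 (33.6% of all genes). Less of this was seen in MEF. There, replicate 1 was highest for 16 (32.8% of all genes) and replicate 3 lowest for 18 (35.4% of all genes). For MEF, CiCM and CM in turn, the median SD of the members was 0.0890, 0.197 and 0.210, beside 0.108, 0.164 and 0.239 over all genes, so the CiCM members spread somewhat more than most genes and the CM members somewhat less.

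The scaling between arrays changed how many calls CM received. With each array levelled on the hybridisation controls, which are transcripts added in known amounts to every sample before hybridisation, the CM against MEF differences of all genes shifted by -0.80, those of CiCM against MEF by -0.23 and those of CiCM against CM by 0.58. On that scale CM had 5 members higher than MEF (Rsad2, Cmpk2, Igtp, Iigp1 and Psmb9) and 6 lower, in place of 16 and 2. Of all 12543 genes tested on that scale, 1522 were called higher and 5578 lower in CM against MEF. Of all calls in CM against MEF, 50.4% were higher as deposited, 34.6% with arrays centred on their medians and 21.4% on the hybridisation controls. For CiCM against CM the share was 46.5%, 62.9% and 75%, and for CiCM against MEF 48.6%, 45.3% and 35.3%.

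On the hybridisation controls, the median CM difference from MEF was -0.01 over the members and -0.88 over all genes. H2-K1 in CM was 0.76 above MEF on that scale and was not called, and the same held for Tap1 (0.69), Gbp2 (0.67), Gbp3 (0.98), Ifit3 (0.61) and Parp14 (0.61), and outside the members for Psme1 (0.70). Dtx3l, Ifit1, Psmb10, Rtp4 and Tap2 also lost their calls in CM against MEF on that scale. For CiCM against MEF, the counts were 3 higher and 12 lower on the hybridisation controls, beside 3 and 11 as deposited. Of all 12543 genes tested on the hybridisation controls, 1132 were called higher and 2079 lower in that comparison. As deposited, these counts were 1451 and 1536 of 12559.

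**Figure D5:**
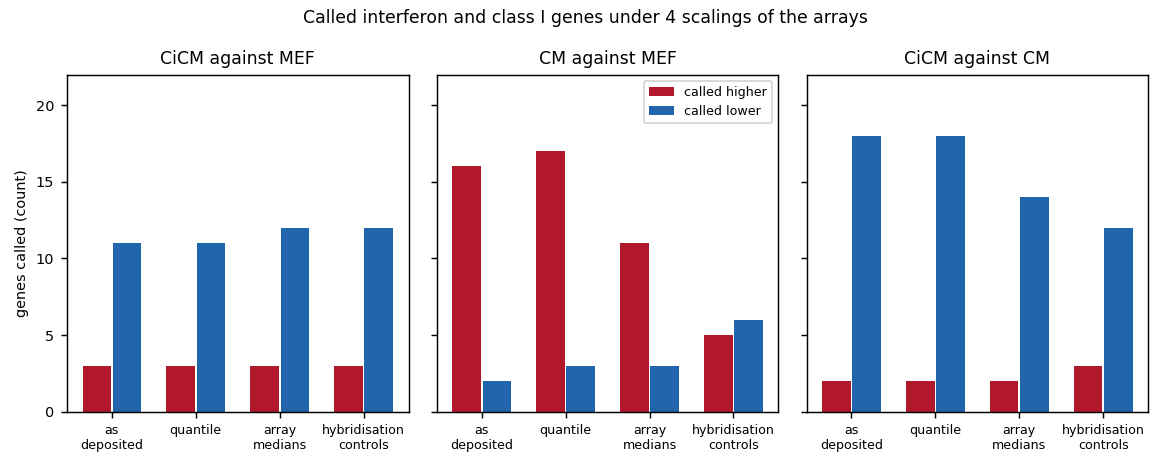
Number of members called higher (red bars) and lower (blue bars) on the y axis under 4 scalings of the arrays (x axis), in 1 panel per comparison. The count called higher in CM against MEF goes from 16 as deposited to 5 on the hybridisation controls, and the count called lower in CiCM against MEF stays at 11 or 12.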

How the data were processed

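Total RNA from 3 MEF, 3 CiCM and 3 CM samples was hybridised to Affymetrix arrays of 45101 probe sets. The deposited values are log2 signals, made by the authors with MAS5 per the submitters' processing notes, whose version and any genome build are not given in the sources used here. MAS5 subtracts mismatch signal, so dim values spread widely. Probe sets were named from GEO's platform annotation: 34945 had 1 symbol, and 932 with several were left out. Genes whose highest group mean reached 6.58, the table's median, were tested with limma 3.58.1 in R 4.3.3 (lmFit, eBayes with a variance trend, all 9 arrays in 1 fit), with Benjamini-Hochberg adjustment. The fit was tested on simulated data. Figures were drawn with matplotlib 3.10.9. Values on every array are given for up to 4 called members per role by size of difference, and for Stat2, Irf7, Ifitm3, Psmb8, Tap1, B2m and H2-K1. Of the other lists, up to 4 called genes per list and comparison are named by size, with Ifnar1, Ifnar2, Psmb5, Psmb6 and Psmb7. Members and lists were chosen with earlier results of these data known. Scan dates are not analysed here, so batch and group cannot be told apart. Alternatives changed the added constant, probe set, filter, scaling, model and arrays.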

Additional observations from a re-analysis of the deposited data

How the results depend on the processing

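The calls among the members held best in CiCM against CM, where 12 of 20 were made under all 22 alternatives other than the one with no minimum difference, and Nlrc5 and Tap1 under all but the 1 in which each was too dim to be tested. In CiCM against MEF 6 of 14 were (Zbp1, Usp18, Igtp, Psmb8, Tapbp and H2-K1), and in CM against MEF 6 of 18 (Rsad2, Bst2, Cmpk2, Igtp, Iigp1 and Psmb9). With the largest of the constants tried, 4 times 32, added to the linear signals, CiCM against MEF had 7 calls in place of 14, and with no minimum difference it had 22, while CiCM against CM then had 33 in place of 20. Levelled on the hybridisation controls, CM against MEF had 11 calls in place of 18. With the mean over probe sets, H2-D1 in CiCM against MEF went from -2.03 to 0.20, and Ifnar1 in CiCM against CM from 0.28 to -1.08; the cause was not tested. Leaving out each array in turn gave 13 to 14, 15 to 19 and 17 to 21 calls. A fit with the replicate number as a block (replicate block) gave 14, 18 and 20 calls, as without it. Deviations of same-numbered samples correlated between -0.0156 and 0.0668, and those of differently numbered samples between -0.0442 and 0.0292. With 3 arrays per group, these values do not show whether the samples were paired. The number of arrays, and for dim genes such as Nlrc5 and Cmpk2 their signal over background, limits the precision.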
